A study of Sus scrofa with 30 samples.

Results

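Leukocyte miRNAs are small RNAs that are abundant in white blood cells, some of them made by few other cells. In the porcine endometrium they were followed here by 5 root names, mir-142, mir-150, mir-155, mir-223 and mir-342. Of the 873 sequences that the study had annotated as miRNAs, 13 carried 1 of these names, in 5 arms of 4 root names. No annotated sequence carried the name mir-223. The study sequenced small RNA of 30 endometria, 16 pregnant and 14 cyclic, to follow miRNAs through the time of implantation. The animals were Hampshire x Duroc crossbred gilts of 7 to 8 months from 1 herd, and the pregnant ones had been inseminated after the third estrus. Groups are named by status (P, pregnant; C, cyclic) and day (D): PD12, PD16, CD16 and CD20 held 5 libraries each, PD20 held 6 and CD12 held 4, with 1 library per animal. PD20 tissue came from implantation sites after the embryo and its membranes had been taken off. Pregnancy was checked by the conceptuses found. Cyclic and pregnant tissue was collected post mortem, and each library is whole endometrium and not sorted cells. The deposited libraries held between 2029729 and 6402731 reads, with a median of 3111079.

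A miRNA guides a silencing complex to messenger RNAs mostly through its seed, bases 2 to 8 from its 5′ end. miR-142 is restricted to blood-forming lineages and is found in nearly all white blood cells. miR-150 is abundant in resting lymphocytes and natural killer cells and falls when these are activated, while miR-155 is made at low level at rest and is induced when lymphocytes, macrophages and dendritic cells are activated. miR-342 lies in an intron of EVL, is rich in lymphocytes and is also made by other cells. miR-223 marks neutrophils and other myeloid cells. Lymphocytes, natural killer cells and macrophages are resident in pig endometrium and gather at the sites where conceptuses attach. In whole tissue, a lower level can come from fewer cells of a type or from less RNA per cell, and these cannot be told apart.

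The 13 sequences are shown because every value below is a count of exact matches to 1 of them. They are written 5′ to 3′ as DNA, and capitals mark the seed. Forms of 1 miRNA that differ in length are called isomiRs, and the length is part of the name used here.
miR-142-3p 22 nt: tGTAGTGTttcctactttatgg
miR-142-5p 19 nt: cATAAAGTagaaagcacta
miR-142-5p 20 nt: cCCATAAAgtagaaagcact
miR-142-5p 21 nt: cCCATAAAgtagaaagcacta
miR-150 21 nt: tCTCCCAAcccttgtaccagt
miR-150 22 nt: tCTCCCAAcccttgtaccagtg
miR-150 23 nt: tCTCCCAAcccttgtaccagtgt
miR-155 23 nt: tTAATGCTaattgtgataggggt
miR-155 24 nt: tTAATGCTaattgtgataggggtt
miR-342 22 nt: tCTCACACagaaatcgcacccg
miR-342 23 nt: tCTCACACagaaatcgcacccgt
miR-342 24 nt: tCTCACACagaaatcgcacccgtc
miR-342 25 nt: tCTCACACagaaatcgcacccgtca

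The 13 sequences fall into 6 seed groups. Within miR-150, miR-155 and miR-342 all isomiRs share the 5′ end and the seed and differ at the 3′ end only. Within miR-142-5p the 19 nt form starts 2 bases further in than the 20 and 21 nt forms and so has another seed. No other annotated sequence had any of these seeds. The study's list gave the 22 nt forms of miR-142-3p and miR-150 and the 25 nt form of miR-342 the name of the mature pig miRNA. It gave the 23 nt form of miR-150 the name of the mature bovine miRNA. The other 9 were named by pig hairpins, the 21 nt form of miR-150 by both mir-150-1 and mir-150-2. The GC content was 36.4% in miR-142-3p and 34.8% and 33.3% in the 23 and 24 nt forms of miR-155, against 52.2% to 54.5% in miR-150 and 52% to 54.5% in miR-342.

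These miRNAs were rare. The 13 sequences held between 0.00768% and 0.0549% of the annotated reads of a library, with a median of 0.0178%. Summed over all libraries, miR-342 had 11119 reads, miR-142-5p 2677, miR-150 2197, miR-155 695 and miR-142-3p 466. Of the 390 values of 13 sequences in 30 libraries, 96 were under 10 reads and 5 were 0. Levels are given below as counts per 1e+06 annotated reads after TMM scaling (normalized reads), a scale on which 1 read was worth 0.256 to 0.592 and the 3 reads that a count of 0 allows were worth 0.769 to 1.77. Reads carried no molecular identifiers, so such limits cover counting error only.

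All 13 sequences were in the list because they had passed the study's minimum, which was 10 reads in at least 4 libraries of at least 1 group, or in 3 of the 4 for CD12. By the deposited counts 4 sequences passed it in all 6 groups, 5 in 4 or 5 groups, and 4 in 1 or 2 groups. The 23 nt form of miR-150 passed in PD20 alone and the 25 nt form of miR-342 in CD12 alone. The 23 and 24 nt forms of miR-155 passed only in PD20 and CD20, the 23 nt form in 4 of 6 PD20 and 5 of 5 CD20 libraries and the 24 nt form in 6 of 6 and 4 of 5. A sequence listed through 1 group is likely to be high in that group, so for these 4 forms the levels in PD20, CD20 or CD12 are partly fixed by the choice.

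Some libraries stood apart. In PD20 replicate 1, the miRNAs listed for stroma and smooth muscle summed to 639414 normalized reads and those listed for skeletal muscle to 40186, while the other 5 PD20 libraries lay between 79587 and 141035 and between 1416 and 8098. CD20 replicate 1 had the highest level of each of the 5 arms within its group. Results called by the F-test that use either library are given with and without it, unless stated.

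The PD20 libraries also held reads of an embryonic miRNA. A 22 nt sequence that the study's list names only by Ensembl gene numbers is the 1 that its assay list names miR-302, a miRNA known from embryonic stem cells. It was at 2.37, 2.44, 4.57, 17.1, 39.3 and 41.2 normalized reads in the PD20 libraries, from 4 to 121 reads. In CD20 it had 3 reads in all, and in PD12, PD16, CD12 and CD16 it was at 0 in every library. It thus separated PD20 from all other groups, and its part in the PD20 results below was not tested.

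A sequence was called when its Benjamini-Hochberg adjusted p by the quasi-likelihood F-test of edgeR was under 0.05 over all 873 annotated sequences and its absolute log2 fold change (log2FC) was over 1. Taken singly, 0 of the 13 sequences were called in any of the 9 comparisons. Forms were also summed within an arm and tested over 239 arms, and the share of all arms called is given below for each comparison. For the comparisons with D12 the p was that of a joint test of both later days, and the single contrasts are given beside it. miR-155 was called higher in CD20 than in CD12 and CD16, and its forms were in the list only through PD20 and CD20. miR-142-3p was called higher in CD20 than in CD16, where every library held under 10 reads of it. miR-342 was called lower in PD16 and PD20 than in PD12. miR-150 and miR-142-5p were not called in any comparison.

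**Figure D1:**
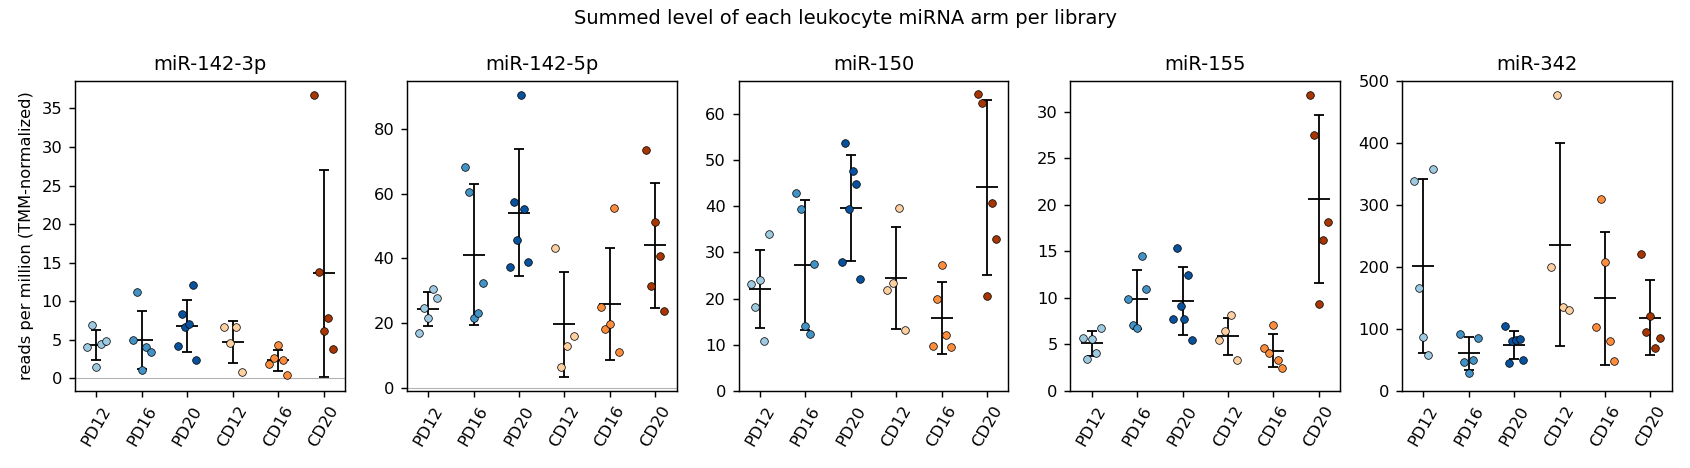
Summed level of each arm (vertical axis, normalized reads, linear) in every library, by group (horizontal axis; P pregnant, C cyclic, with the day). Points are libraries, dashes are means and bars are 1 SD (n = 4 to 6). In miR-155 all 5 CD20 points lie above those of CD12 and CD16, between 9.31 and 31.8, and in miR-342 the D12 groups hold the highest points.

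miR-155 is processed from the transcript of MIR155HG and is among the most inducible miRNAs of activated immune cells. Its summed level in CD12 was 3.30, 5.48, 6.41 and 8.13 normalized reads in the 4 libraries. In CD16 it was 2.39, 3.24, 4.07, 4.57 and 7.08, and in CD20 it was 9.31, 16.1, 18.1, 27.5 and 31.8. Every CD20 library was above every CD12 and CD16 library. In PD12 the level was 3.44, 4.07, 5.54, 5.63 and 6.73, and in PD16 it was 6.71, 7.08, 9.86, 10.9 and 14.5. In PD20 it ran from 5.45 over a median of 8.43 to 15.4. Of the 5 PD16 libraries 4 were above every PD12 library, and the ranges of PD20 and PD16 overlapped.

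Both listed forms entered the list only through PD20 and CD20, so a higher level there than in CD12 or CD16 is partly fixed by the choice, and the tests of this miRNA in CD20 are given as a description. The arm was called higher in the late cycle, with a log2FC of 1.67 (SE 0.472) on CD20 vs CD12 and of 2.08 (SE 0.445) on CD20 vs CD16. The adjusted p values of the F-test were 0.0131 for the joint test of both cyclic days against CD12 and 0.0117 for CD20 vs CD16. As a single contrast CD20 vs CD12 had an adjusted p of 0.0936 by the F-test and was not called. Both calls were kept without CD20 replicate 1, at log2FC 1.52 (adjusted p = 0.0372, F-test) and 1.94 (adjusted p = 0.0226, F-test). The first was lost without CD12 replicate 4 or CD20 replicate 2 (adjusted p = 0.0502 and 0.0552, F-test). In pregnancy the arm had log2FC 0.95 (SE 0.344) on PD16 vs PD12 and 1.00 (SE 0.332) on PD20 vs PD12 (adjusted p = 0.154 by the joint F-test), and was not called. The order of the group means was CD20, PD16, PD20, CD12, PD12 and CD16. Only the steps from CD20 to PD16 and from PD20 to CD12 were larger than the larger of the neighbouring SDs, and no neighbouring groups were without overlap.

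Neither isomiR of miR-155 was called by the F-test on its own, and both had a log2FC above 0 in each of these comparisons. The 24 nt form was at 0, 1.91, 2.06 and 2.19 normalized reads in CD12 and at 3.72, 7.24, 11.4, 11.9 and 19.4 in CD20, with no overlap. Its log2FC of 2.84 (SE 0.739) had an adjusted p of 0.0526 by the F-test, and 0.000584 by the likelihood ratio test. On CD20 vs CD16 its log2FC was 2.46 (SE 0.653; adjusted p = 0.0957, F-test, and 0.0119, likelihood ratio test). The 23 nt form was at 1.85, 1.99, 2.59, 2.69 and 3.30 in CD16 and at 5.59, 6.19, 8.11, 8.91 and 20.5 in CD20, again with no overlap. Its log2FC was 1.88 (SE 0.53; adjusted p = 0.0957, F-test, and 0.0263, likelihood ratio test). On CD20 vs CD12 it was 1.18 (SE 0.543; adjusted p = 0.121, F-test, and 0.0315, likelihood ratio test). Without CD20 replicate 1 the 24 nt form had log2FC 2.82 against CD12 and 2.52 against CD16 (adjusted p = 0.102 and 0.256, F-test), and the 23 nt form 0.69 and 1.45 (adjusted p = 0.229 and 0.265, F-test). Since both forms were listed through CD20, the lack of overlap is a description only. In CD12 and CD16 these 2 forms rested on at most 25 reads in a library.

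miR-142-3p is 1 of the guide strands of the hairpin that marks blood-forming cells. It was measured as a single sequence. Its level was 0.824, 4.61, 6.57 and 6.70 normalized reads in CD12, and 0.399, 1.88, 2.32, 2.59 and 4.25 in CD16. In CD20 it was 3.81, 6.05, 7.80, 13.7 and 36.7. All but 1 of the CD20 libraries were above all CD16 libraries, and the highest CD20 library, replicate 1, was far above the rest. In pregnancy it was 1.39, 4.07, 4.41, 4.81 and 6.87 in PD12, 1.03, 3.33, 4.10, 4.93 and 11.2 in PD16, and from 2.38 over 6.85 to 12.1 in PD20. These 3 groups overlapped widely.

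On CD20 vs CD16 the arm had a log2FC of 2.36 (SE 0.648; adjusted p = 0.0416, F-test) and was called. It rested on 1 to 9 reads in each CD16 library, 29 in all, and on 8 to 97 in CD20. The sequence passed the study's minimum in CD20 and not in CD16, where 0 of 5 libraries reached 10 reads. Without CD20 replicate 1 the log2FC was 1.67 and the adjusted p of the F-test 0.206. Of the 10 fits that each left out 1 library, 4 kept the call, and it was lost with the replicate number as a block (log2FC 2.25, adjusted p = 0.0568, F-test). On CD20 vs CD12 the log2FC was 1.35 (SE 0.661; adjusted p = 0.0779, F-test, and 0.0132, likelihood ratio test), and 0.66 without CD20 replicate 1. On CD16 vs CD12 it was -1.01 (SE 0.693), with the same adjusted p values because both days were tested jointly. With sets of 12 consecutive title numbers as a block, the log2FC was 0.46 on CD20 vs CD12 and -1.75 on CD16 vs CD12 (adjusted p = 0.0694, F-test). With the replicate number as a block, these values were 1.60 and -0.65 (adjusted p = 0.1065, F-test). Taken as 1 of the 873 sequences it had log2FC 2.51 (SE 0.681; adjusted p = 0.0957, F-test, and 0.0204, likelihood ratio test) on CD20 vs CD16 and 1.56 (SE 0.696; adjusted p = 0.121, F-test, and 0.0277, likelihood ratio test) on CD20 vs CD12, which became 1.75 and 0.74 without CD20 replicate 1 (adjusted p = 0.265 and 0.229, F-test). Its group means ran in the order CD20, PD20, PD16, CD12, PD12 and CD16, and all neighbouring ranges overlapped, though the step from PD12 to CD16 was larger than the larger SD.

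miR-142-5p comes from the other arm of the same hairpin. Its summed level was 16.9, 21.7, 24.7, 27.9 and 30.5 normalized reads in PD12 and 21.7, 23.1, 32.4, 60.7 and 68.3 in PD16. In PD20 it ran from 37.3 over 50.6 to 90.6. Every PD20 library was above every PD12 library. In CD12 the level was 6.41, 12.9, 16.1 and 43.3, in CD16 it was 11.2, 18.1, 19.8, 25.02 and 55.6, and in CD20 it was 23.8, 31.4, 40.7, 51.2 and 73.5. The cyclic groups overlapped. The arm had its smallest unadjusted p in pregnancy, with log2FC 1.23 (SE 0.352) on PD20 vs PD12, and did not pass the threshold (adjusted p = 0.138, F-test). Over the 11 fits that left out 1 library, this log2FC ran from 0.99 to 1.35.

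Its 3 isomiRs had log2FC above 0 in both comparisons with PD12, and none was called by the F-test. The 19 nt form and the 20 and 21 nt forms have different seeds. The 19 nt form was at 0, 1.25, 3.09, 4.07 and 6.09 normalized reads in PD12 and from 7.68 over a median of 9.80 to 12.4 in PD20, with no overlap. Its log2FC was 1.73 (SE 0.556) on PD20 vs PD12 and 1.56 (SE 0.577) on PD16 vs PD12 (adjusted p = 0.170, F-test, and 0.0409, likelihood ratio test), and 1.79 in PD20 without replicate 1 (adjusted p = 0.169, F-test). The 20 nt form was at 11.2 to 14.2 in PD12 and at 17.4 to 56.4 in PD20, again with no overlap, with log2FC 1.17 (SE 0.406; adjusted p = 0.234, F-test). The 21 nt form had log2FC 0.86 (SE 0.412; adjusted p = 0.385, F-test) in the same comparison.

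miR-150 is the lymphocyte miRNA that restrains the transcription factor MYB. Its summed level was 13.2, 21.9, 23.3 and 39.7 normalized reads in CD12 and 9.57, 9.69, 12.1, 20.0 and 27.4 in CD16. In CD20 it was 20.5, 32.9, 40.7, 62.4 and 64.4, above most CD16 libraries but with overlap. In PD12 it was 10.8, 18.2, 23.1, 24.0 and 33.98, in PD16 it was 12.3, 13.9, 27.6, 39.5 and 42.9, and in PD20 it ran from 24.2 over 42.1 to 53.8. The pregnant groups overlapped as well. The arm had log2FC 1.33 (SE 0.408) on CD20 vs CD16 and missed the threshold of the F-test (adjusted p = 0.0589), while the likelihood ratio test called it (adjusted p = 0.0277). Without CD20 replicate 1 it had log2FC 1.21 (adjusted p = 0.196, F-test). Of its isomiRs, the 22 nt mature form was at 5.38, 5.98, 6.49, 9.98 and 15.1 in CD16 and at 11.6, 21.9, 22.8, 30.3 and 41.7 in CD20. Its log2FC was 1.49 (SE 0.456; adjusted p = 0.0969, F-test, and 0.0384, likelihood ratio test), and 1.30 without CD20 replicate 1 (adjusted p = 0.265, F-test). The 21 nt form had log2FC 1.13 (SE 0.51; adjusted p = 0.203, F-test) and the 23 nt form 1.55 (SE 0.57; adjusted p = 0.123, F-test) in that comparison. Group means of the arm ran in the order CD20, PD20, PD16, CD12, PD12 and CD16, the same order as for miR-142-3p, with every step smaller than the larger SD of its neighbours.

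miR-342 had the highest counts and another time course. Its summed level was 57.6, 86.8, 166, 339 and 359 normalized reads in PD12. In PD16 it was 28.9, 46.6, 49.5, 85.2 and 92.2, and in PD20 it ran from 44.4 over 80.9 to 104. Of the 5 PD12 libraries, 3 were above every PD16 and PD20 library and 2 lay within their range. In the cycle it was 131, 135, 199.98 and 478 in CD12, 47.5, 80.2, 102, 208 and 309 in CD16, and 69.1, 85.2, 94.5, 121 and 221 in CD20. The cyclic groups overlapped, with the means in the order of the days.

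The arm was called lower after D12 of pregnancy, with log2FC -1.70 (SE 0.437) on PD16 vs PD12 and -1.30 (SE 0.407) on PD20 vs PD12 (adjusted p = 0.0461 by the joint F-test). This call was narrow. As single contrasts the adjusted p values of the F-test were 0.226 and 0.0745, and neither day was called. It was lost with sets of 12 consecutive title numbers as a block, at log2FC -1.70 in PD16 and -1.27 in PD20 (adjusted p = 0.0675, F-test), and with all deposited reads as library size, at -1.79 and -1.64 (adjusted p = 0.0592, F-test). With the replicate number as a block it was at -1.62 and -0.98, the second short of the fold threshold (adjusted p = 0.112, F-test). It was kept in 3 of the 10 fits that left out a library for PD16 vs PD12 and in 2 of 11 for PD20 vs PD12, and without PD20 replicate 1 the second had log2FC -1.38 (adjusted p = 0.0811, F-test). Each log2FC stayed below -1 in these left-out fits. In the cycle the arm had log2FC -0.64 (SE 0.508) on CD16 vs CD12 and -1.18 (SE 0.509) on CD20 vs CD12 (adjusted p = 0.258, F-test), and was not called. The log2FC of most epithelial markers was below 0 in the same pregnancy comparisons, with values given below.

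Of the 4 isomiRs of miR-342, 3 were called by the likelihood ratio test in both pregnancy comparisons. The 24 nt form, the most abundant of all 13 sequences, was at 41.0, 52.7, 120, 217 and 249 normalized reads in PD12 and at 21.2, 28.3, 32.8, 55.2 and 64.5 in PD16, and ran from 24.5 over 44.1 to 62.1 in PD20. Its log2FC was -1.64 (SE 0.473) in PD16 and -1.59 (SE 0.444) in PD20 (adjusted p = 0.0706, F-test, and 0.00718, likelihood ratio test). The 23 nt form had -1.76 (SE 0.499) and -1.35 (SE 0.46; adjusted p = 0.083, F-test, and 0.0174, likelihood ratio test), and the 25 nt form -1.89 (SE 0.584) and -1.44 (SE 0.529; adjusted p = 0.112, F-test, and 0.0377, likelihood ratio test). The 22 nt form had -1.22 (SE 0.584) in PD16 (adjusted p = 0.389, F-test) and -0.46 in PD20, and was called by neither test. Without PD20 replicate 1 the 24, 23 and 25 nt forms had -1.74, -1.48 and -1.73 in PD20 (adjusted p = 0.0605, 0.0744 and 0.0865, F-test).

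**Figure D2:**
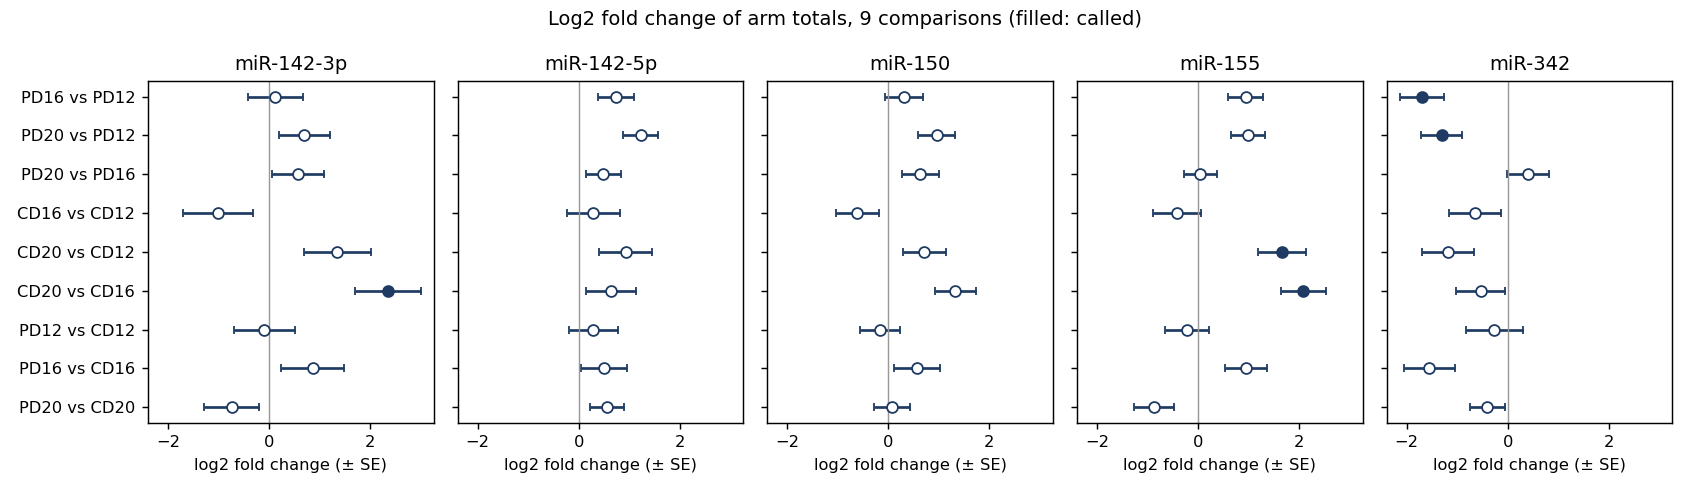
Log2 fold change of each arm total (horizontal axis, points with 1 SE) in the 9 comparisons (vertical axis). Filled points were called by the F-test of edgeR: miR-342 in PD16 and PD20 vs PD12 (-1.70 and -1.30), miR-155 in CD20 vs CD12 and CD16 (1.67 and 2.08) and miR-142-3p in CD20 vs CD16 (2.36).

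Counts of calls are set here against the share of all features called in the same comparison. In pregnancy the F-test called 0 of 13 sequences on PD16 vs PD12 and PD20 vs PD12, against 0.229% and 0.802% of all 873. At an unadjusted p under 0.05 the joint F-test found 5 of 13, against 18.7% of all. The likelihood ratio test called 4 of 13 in each, 3 lower and 1 higher, against 2.75% and 5.27%. On PD20 vs PD12 it called 3 lower and 1 higher also without PD20 replicate 1. DESeq2 called 4 in each, against 2.89% and 5.32%. With all libraries the 3 lower likelihood ratio calls were isomiRs of miR-342 and the 1 higher was the 19 nt form of miR-142-5p. IsomiRs of 1 arm are not separate miRNAs, so these counts of sequences are not read as an excess. Of the 5 arms, 1 was called lower in each, against 0.837% and 2.93% of 239 arms. On PD20 vs PD16 the F-test called 0 of 13 sequences and 0 of 5 arms, against 0.573% and 1.67%, with 0 at an unadjusted p under 0.05 (14.2% of all) and 0 by the likelihood ratio test (2.41%) and by DESeq2 (1.74%). The log2FC of this comparison was above 0 for 12 of 13 sequences, with a median of 0.41 against -0.06 for all. These 13 are forms of only 5 arms, so this count too is not read as an excess.

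In the cycle the F-test called 0 of 13 sequences in CD16 and in CD20 against CD12, where 0.115% and 0.458% of all were called, with 5 of 13 at an unadjusted p under 0.05 in the joint test (23.9% of all). The likelihood ratio test called 0 and 3, all 3 higher, against 5.27% and 5.73%, and DESeq2 called 1 and 3, against 5.88% and 6.45%. Of the 5 arms 0 and 1 were called, against 1.67% and 2.09%. On CD20 vs CD16 the F-test called 0 of 13 sequences (0.458% of all) and 2 of 5 arms (4.18% of all), with 6 of 13 sequences at an unadjusted p under 0.05 (21.2%) and 4 called higher by the likelihood ratio test (6.41%) and 4 by DESeq2 (8.29%). Without CD20 replicate 1 the likelihood ratio test called 1 of 13 against CD12 and 1 against CD16, where it called 16 higher and 5 lower and then 6 higher and 0 lower of all 873. The forms of miR-155, listed only through PD20 and CD20, made up 2 of the 3 likelihood ratio calls on CD20 vs CD12, 2 of the 4 against CD16, and 1 of the 2 arms called there, so these counts are partly fixed by the choice and are not read as an excess. The median log2FC of the 13 was 1.03 for CD20 vs CD12 and 1.13 for CD20 vs CD16, against 0.09 and -0.03 for all sequences. Without CD20 replicate 1 these medians were 0.69 and 0.93, against 0.03 and 0.01 for all sequences. The medians of the 13 include the forms of miR-155 and so share the limit just given. Comparisons that use the same group share its libraries, so the CD20 results do not stand for each other.

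Pregnant and cyclic endometria of the same day were compared to ask whether these miRNAs differed with the presence of a conceptus. No sequence or arm was called by the F-test on any day. On PD12 vs CD12 the share called over all features was 0% for sequences and 0% for arms, 0 of 13 had an unadjusted p under 0.05 (6.07% of all), and the likelihood ratio test called 0 (0.115%), as did DESeq2 (0%). The 5 arms had log2FC between -0.26 and 0.29 there. On PD16 vs CD16 the F-test likewise called 0% of all sequences and 0% of all arms, 4 of 13 sequences had an unadjusted p under 0.05 (10.9% of all), and the likelihood ratio test called 0 (0.573%), as did DESeq2 (0.805%). miR-342 had log2FC -1.55 (SE 0.497; adjusted p = 0.237, F-test) and miR-155 had 0.95 (SE 0.413; adjusted p = 0.502, F-test) on that day. On PD20 vs CD20, where 1.49% of all sequences and 7.95% of all arms were called by the F-test, 2 of 13 sequences had an unadjusted p under 0.05 (28.5% of all) and the likelihood ratio test called 0 (14.2%), as did DESeq2 (15.2%). Those 2 were the isomiRs of miR-155, at log2FC -1.19 (SE 0.49) and -1.02 (SE 0.428), and the arm had -0.87 (SE 0.398; adjusted p = 0.161, F-test).

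The time courses of pregnancy and cycle were compared directly by the interaction of status and day over all 30 libraries. For miR-155 the change from D16 to D20 was smaller in pregnancy than in the cycle by 1.93 on the log2 scale (interaction -1.93, SE 0.517; adjusted p = 0.0343, F-test). The arm had log2FC 0.05 (SE 0.322) on PD20 vs PD16 beside 2.08 on CD20 vs CD16. The call was kept in 21 of the 30 fits that left out 1 library and was lost without PD16 replicate 1, 4 or 5, PD20 replicate 6, CD16 replicate 2, 4 or 5, or CD20 replicate 1 or 2. The value closest to 0 was that without CD20 replicate 1, at -1.73 (adjusted p = 0.101, F-test), and without PD20 replicate 1 it was -1.93 (adjusted p = 0.0445, F-test). It was 1 of 5 arms, against 2.93% of all arms, and among the 13 sequences 0 were called (2.41% of all), with 4 at an unadjusted p under 0.05 (19.1% of all) and 1 by the likelihood ratio test (5.38% of all). Since the forms of miR-155 were listed through PD20 and CD20, this interaction too is given as a description. For the changes from D12 to D16 and from D12 to D20 the F-test called 0 of 13 sequences (0% and 0.115% of all) and 0 of 5 arms (0% and 0.418% of all), with 2 and 1 sequences at an unadjusted p under 0.05 (8.13% and 16.4% of all) and 0 called by the likelihood ratio test (0% and 1.83% of all). The interaction of miR-142-3p from D16 to D20 was -1.73 (SE 0.857; adjusted p = 0.228, F-test). For miR-342 from D12 to D16 it was -1.24 (SE 0.724; adjusted p = 0.735, F-test), so its change in pregnancy was not shown to differ from the change in the cycle.

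**Figure D3:**
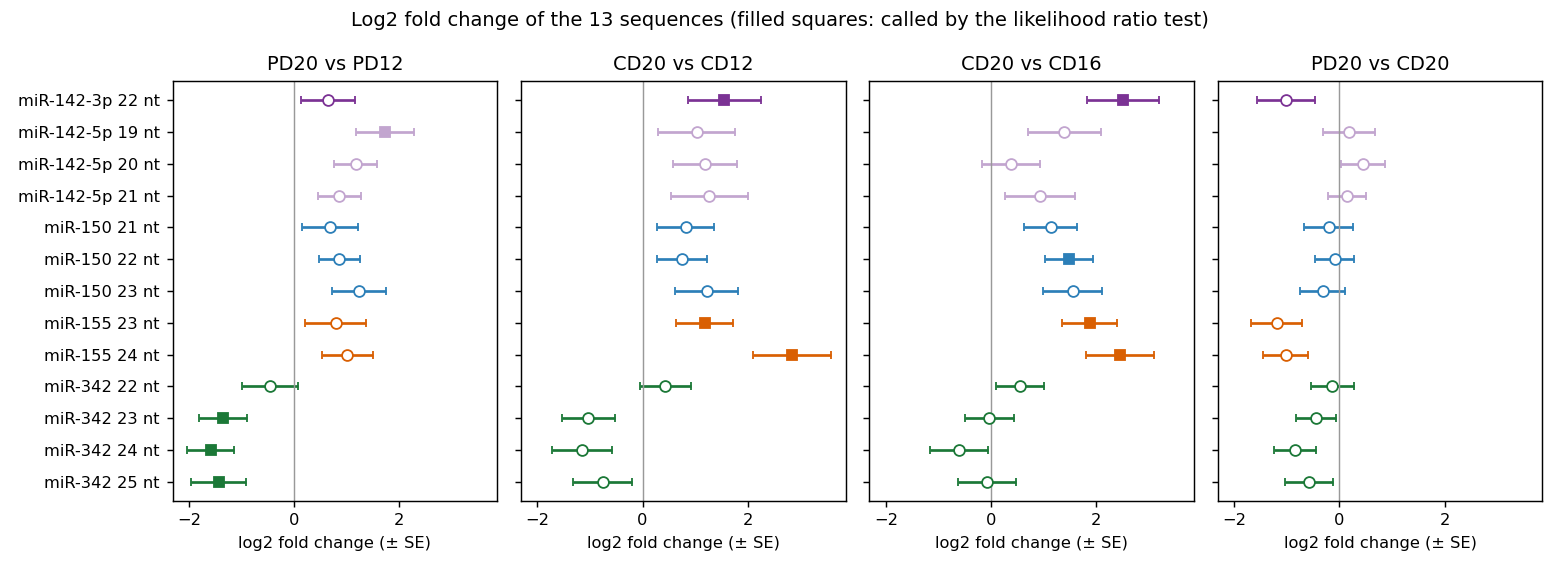
Log2 fold change of the 13 sequences (vertical axis; horizontal axis log2 scale, points with 1 SE) in 4 comparisons. Filled squares were called by the likelihood ratio test of edgeR and none by the F-test. In PD20 vs PD12 the 4 isomiRs of miR-342 lie below 0 and the other 9 sequences above, and in CD20 vs CD16 the largest values are those of miR-142-3p (2.51) and the 24 nt form of miR-155 (2.46).

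The makeup of each arm was compared as the share of its forms. The mean share of an arm's annotated reads was 67.2% for the 24 nt form of miR-342, 61.1% for the 22 nt form of miR-150, 50.8% for the 20 nt form of miR-142-5p and 54.1% for the 23 nt form of miR-155. Summary measures of the forms were tested in 45 comparisons by an exact two-sided permutation test, and 0 had an adjusted p under 0.05 while 5 had an unadjusted p under 0.05. All 5 were the mean length of miR-342. It was 23.69 ± 0.0678 nt in PD12 (SD, n = 5), 23.67 ± 0.0908 in PD16 (n = 5) and 23.52 ± 0.114 in PD20 (n = 6), and 23.78 ± 0.0399 in CD12 (n = 4), 23.76 ± 0.0831 in CD16 (n = 5) and 23.63 ± 0.0691 in CD20 (n = 5). On both D20 groups the mean was shorter than on D12, with differences of -0.176 nt in pregnancy and -0.15 nt in the cycle (exact permutation p = 0.013 and 0.0159, adjusted p = 0.357 for both). The 22 nt form made up 18.4% ± 5.53 of the arm in PD20 (SD, n = 6) and 9.27% ± 1.76 in PD12 (n = 5).

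The 3p to 5p ratio of mir-142 was negative on the log2 scale in every library, from -4.45 to -0.463, so reads of the 5p forms outnumbered those of the 3p form throughout. It was -2.02 ± 0.893 in CD20 and -3.45 ± 0.984 in CD16 (SD, n = 5 each; exact permutation p = 0.0635, adjusted p = 0.357). Within miR-142-5p the forms with the outer start outnumbered the 19 nt form on average in every group, with a mean log2 ratio of 2.45 ± 1.30 over the 30 libraries, and the direction was reversed in at least 1 CD12 library (lowest -0.334). Forms outside the annotated list were also present. Counting every deposited sequence that begins with the first 17 bases of a member, the list covered 90.3% of the reads of miR-342, 83.9% of miR-150, 71.8% of miR-142-3p, 69.4% of miR-142-5p and 53.9% of miR-155. The most frequent form of miR-155 left out was 22 nt long, with 179 reads, and is shown because it is 1 base shorter than the shorter listed form and has the seed of both.
miR-155 22 nt: tTAATGCTaattgtgatagggg

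With all these forms counted, the arm of miR-155 had log2FC 1.48 for CD20 vs CD12 and 1.67 for CD20 vs CD16 (adjusted p = 0.0284 and 0.0165, F-test), and both stayed called. This sum still held the 2 forms listed through PD20 and CD20, so it remains partly fixed by the choice. The forms outside the list were not tested alone. Only the leukocyte miRNA arms were extended in this way, and the other arms kept their annotated forms. miR-342 had -1.67 and -1.28 in PD16 and PD20 vs PD12 (adjusted p = 0.0435, F-test).

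**Figure D4:**
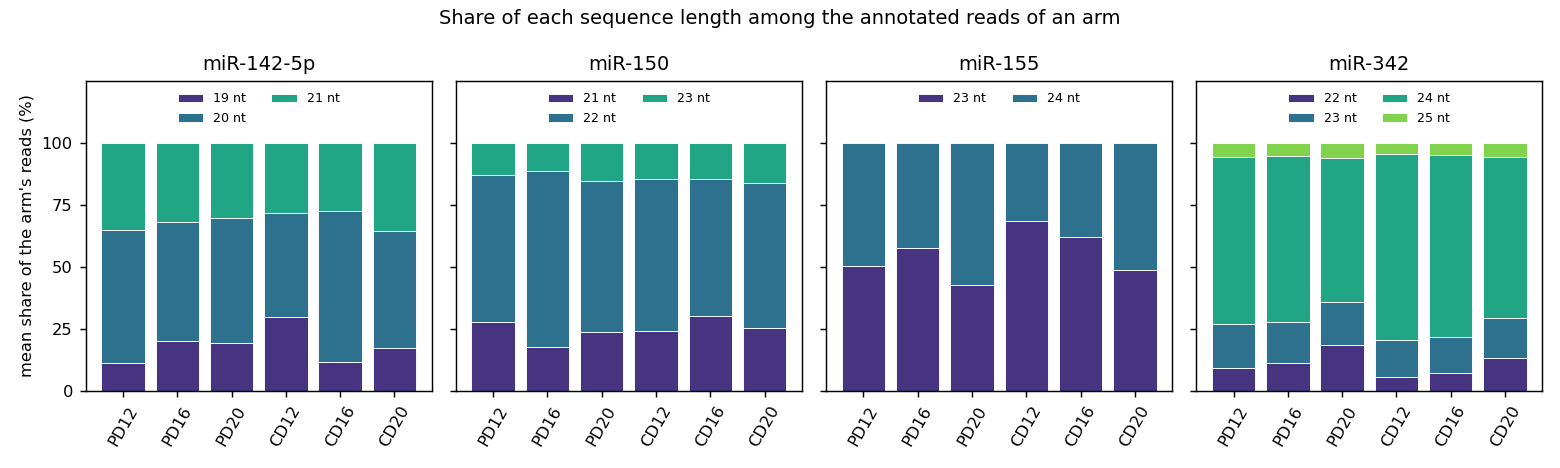
Mean share of each sequence length (stacked bars, percent of the annotated reads of the arm, from 0 to 100) by group, for the 4 arms with several forms. The 24 nt form leads in miR-342 in all groups and the 22 nt form in miR-150, and the share of the 22 nt form of miR-342 is 18.4% in PD20 and 5.68% in CD12.

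Arm totals were also compared with each other over the 30 libraries, on log2 of normalized reads plus 1. Libraries share a normalization, and members of a pair share each library's depth, so these relations are not between independent measurements. Of 15 relations computed, the highest were miR-142-3p with miR-150 (Pearson r = 0.770, Spearman rho = 0.761), miR-150 with miR-155 (r = 0.741, rho = 0.770) and miR-142-3p with miR-155 (r = 0.714, rho = 0.623). The permutation p of r was 1e-05, the smallest that 100000 permutations can give, for the first and second pairs (adjusted p = 7.5e-05) and 3e-05 for the third (adjusted p = 0.00015). The permutation p of rho was 1e-05, 1e-05 and 0.00039. These permutations took no account of group, so differences between group means enter all of these p values. Without the 2 libraries farthest from the median, r was 0.711, 0.704 and 0.564. The forms of miR-155 were listed through PD20 and CD20, where miR-150 and miR-142-3p also had their highest means, so the relations with miR-155 are partly fixed by the choice and their p values support nothing further.

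The relations were closer among the 14 cyclic libraries, where r was 0.890, 0.913 and 0.870, than among the 16 pregnant ones, where it was 0.583, 0.453 and 0.303, and this difference was not tested. As deviations from the group means r was 0.652, 0.627 and 0.579. Sample titles are numbered, and the study made 3 pools of barcoded libraries without saying which library was in which. Within 3 sets of 12 consecutive title numbers, a split that may or may not follow the pools, r ran from 0.662 to 0.852, from 0.602 to 0.897 and from 0.354 to 0.950. miR-142-5p had r = 0.544 with miR-142-3p (permutation p = 0.00179, adjusted p = 0.00671) and r = 0.482 with miR-150 (permutation p = 0.00758, adjusted p = 0.0227). As deviations from the group means these were 0.477 and 0.250. miR-342 had r between -0.338 and 0.191 to the other 4 arms (adjusted permutation p from 0.115 to 0.708). Its r to the other 4 was between 0.0245 and 0.485 as deviations from the group means, where the 2 values below 0, with miR-142-5p and miR-155, turned positive. Within single sets of title numbers its r with miR-142-3p, miR-150 and miR-155 and those of the erythroid list below also changed sign in places, so the weak relations are given as values only.

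**Figure D5:**
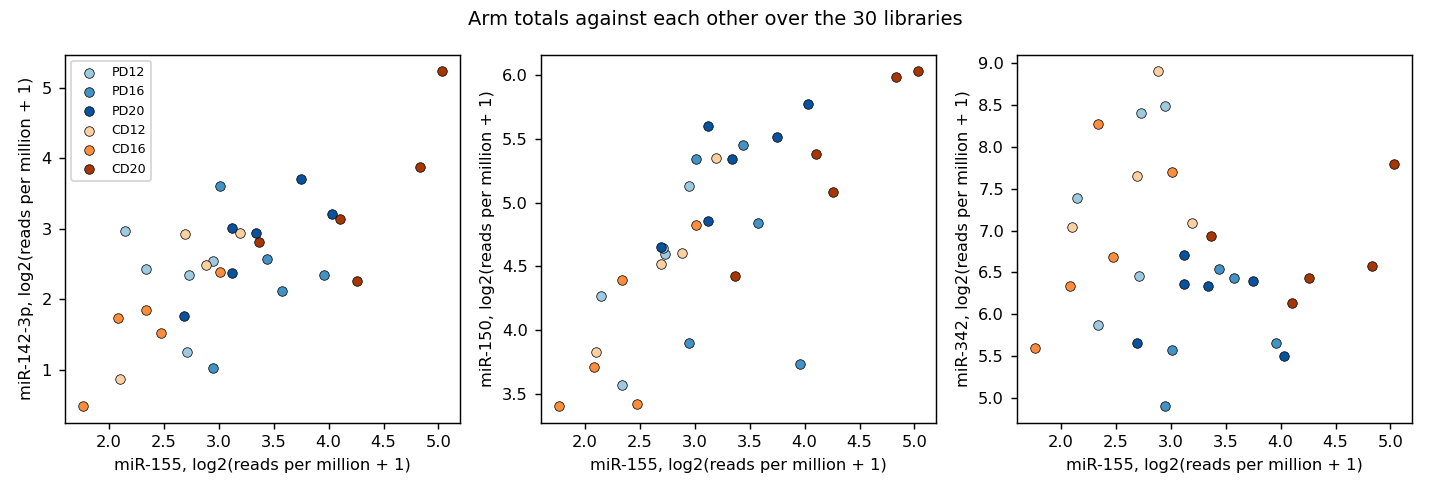
Arm totals of the 30 libraries against each other, on log2 of normalized reads plus 1 on both axes, with points coloured by group. miR-142-3p and miR-150 rise with miR-155 (r = 0.714 and 0.741), while miR-342 shows no such slope (r = -0.0895).

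The annotated sequences outside the 13 with the most similar levels over the 30 libraries were picked by Pearson r among 542 with a mean of at least 10 normalized reads. For miR-142-3p they were a 22 nt form of miR-101 (r = 0.776) and mature miR-16 (r = 0.731). For miR-142-5p they were a 20 nt form of miR-27a (r = 0.801) and miR-30a-5p (r = 0.793), for miR-150 a 20 nt form of miR-26a (r = 0.754) and a 20 nt form of miR-126 (r = 0.699), for miR-155 a 23 nt form of miR-16 (r = 0.685) and a 21 nt form of miR-30b (r = 0.667), and for miR-342 a 24 nt form of miR-10a (r = 0.714) and miR-542-3p (r = 0.688). None of these is restricted to leukocytes.

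Markers of other cells were read beside these results. The endothelial list, 17 sequences of miR-126, summed to 2602 ± 778 normalized reads in CD12 (SD, n = 4), 3197 ± 610.1 in CD16 (n = 5) and 4604 ± 293 in CD20 (n = 5), and was highest in CD20, as miR-155 and miR-142-3p were. All 17 had a log2FC above 0 in CD20 against either earlier cyclic day, with medians of 0.74 and 0.80, and the F-test called 0 while the likelihood ratio test called 2 in each, with 7 at an unadjusted p under 0.05 in both. Without CD20 replicate 1 all 17 were above 0 as well, and the likelihood ratio test called 0 in each. The shares of all 873 sequences given above for the same comparisons were 0.458% in both by the F-test, 5.73% and 6.41% by the likelihood ratio test and 23.9% and 21.2% unadjusted, with medians of 0.09 and -0.03. Its most abundant sequence was a miR-126 form with a mean of 2066. The epithelial list (49 sequences, led by miR-200c at 4616) was at 10551 ± 1567 in CD12, 14913 ± 4329 in CD16 and 8824 ± 2357 in CD20. On CD20 vs CD16 its sum was lower, while 23 of its sequences had a log2FC above 0 and 26 below, with a median of -0.04. The F-test called 0 of its sequences there, the likelihood ratio test 1, with 10 at an unadjusted p under 0.05, beside the shares just given for that comparison. In pregnancy the list stood at 13677 ± 3078 in PD12 (n = 5), 14877 ± 3484 in PD16 (n = 5) and 12754 ± 3087 in PD20 (n = 6). Of its 49 sequences 34 had a log2FC below 0 on PD16 vs PD12, with a median of -0.31, and 40 on PD20 vs PD12, with a median of -0.44, against 0.05 and -0.01 for all sequences. The F-test called 0 of them, the likelihood ratio test 3 and 2 lower (2.75% and 5.27% of all were called), and 12 had an unadjusted p under 0.05 in the joint test (18.7% of all). Without PD20 replicate 1 the second comparison had 38 below 0 and a median of -0.35. The counts and medians of both comparisons lie in the direction of miR-342, while the sum was higher in PD16 than in PD12. The part of these cells in the results was not tested.

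The erythroid list (16 sequences, led by miR-451 at 798) stood at 972 ± 427 in CD12, 1446 ± 935 in CD16 and 1076 ± 618 in CD20, and was not highest in CD20 as miR-155 was, with r = 0.00876 to it (permutation p = 0.964, adjusted p = 0.964). Its r to the other arms was 0.442 for miR-142-5p (permutation p = 0.0149, adjusted p = 0.0373), 0.377 for miR-142-3p (permutation p = 0.04, adjusted p = 0.0749), 0.248 for miR-150 (permutation p = 0.188, adjusted p = 0.282) and 0.0833 for miR-342 (permutation p = 0.661, adjusted p = 0.708). In pregnancy it was at 1199 ± 426 in PD12 (n = 5), 1421 ± 1217 in PD16 (n = 5) and 2190.1 ± 1177 in PD20 (n = 6). The list of stroma and smooth muscle (54 sequences, led by miR-143-3p at 61442) and that of skeletal muscle (8 sequences, led by miR-1 at 4236) were highest in PD20, at 195571 ± 218843 and 9979.9 ± 14977, through replicate 1. Without it they were at 106803 ± 27685 and 3939 ± 2585 (n = 5), beside 109616 ± 22007 and 3097 ± 2919 in PD12 (n = 5). On PD20 vs PD12 the F-test called 0 of the 16 erythroid, 0 of the 54 stromal and 0 of the 8 skeletal muscle sequences, with 1, 11 and 5 at an unadjusted p under 0.05, and the likelihood ratio test called 0, 0 and 4. On PD16 vs PD12 the log2FC was below 0 for 12 of the 16, 38 of the 54 and 8 of the 8, with medians of -0.43, -0.29 and -0.55, and the F-test called 0 in each list. For PD20 vs PD12 without PD20 replicate 1 the counts at an unadjusted p under 0.05 were 0, 2 and 2, and the likelihood ratio test called 0 in each list. Of all 873 sequences, 0.802% were called by the F-test there, 5.27% by the likelihood ratio test and 18.7% passed unadjusted. Markers of the embryo, mir-302, mir-367, mir-371, mir-372 and mir-373, were matched by no annotated name, but 17 annotated sequences had no miRNA name, the sequence of the miR-302 assay among them.

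A further list held 103 sequences of 22 miRNAs that act in leukocytes but are made by many cells, among them miR-21, the most abundant at 180936 normalized reads, miR-146a, miR-16 and miR-17. On CD20 vs CD16 the F-test called 2 of the 103 higher and 0 lower, and the likelihood ratio test 16 higher and 0 lower. On CD20 vs CD12 the numbers were 2 and 0, and 14 and 0. Over all 873 sequences the F-test called 4 higher and 0 lower in each, and the likelihood ratio test 39 higher and 17 lower on CD20 vs CD16 and 36 and 14 in CD20 against CD12. The median log2FC of the list was 0.22 and 0.24, against -0.03 and 0.09 for all. Without CD20 replicate 1 the F-test called 1 of the 103 higher in each, and the likelihood ratio test 3 on CD20 vs CD16 and 6 on CD20 vs CD12. The 2 sequences, named here after their values were seen, were mature miR-146a-5p, which curbs inflammatory signalling, and miR-17-5p of the proliferation-linked miR-17 cluster. Their log2FC on CD20 vs CD16 was 1.88 (SE 0.387) and 2.32 (SE 0.472), each with an adjusted p of 0.0251 by the F-test. With CD20 replicate 1 left out, miR-146a-5p had 1.84 and stayed called (adjusted p = 0.0482, F-test), while miR-17-5p had 1.93 and was not called (adjusted p = 0.0646, F-test). Against CD12 they had 1.25 and 2.36 with all libraries (adjusted p = 0.0446 and 0.0120, F-test). Against CD12 without that library it was miR-17-5p that stayed called, at 1.895 (adjusted p = 0.0468, F-test), and miR-146a-5p that did not, at 1.15 (adjusted p = 0.0758, F-test). In PD20 vs PD12 the F-test called 1 of the 103 higher and 0 lower, and in PD16 vs PD12 it called 0 higher and 1 lower, beside 0.802% and 0.229% of all. Both of these calls were the same 24 nt form of miR-146b, at log2FC 1.498 (SE 0.399) and -1.07 (SE 0.41; adjusted p = 0.00929, joint F-test). Without PD20 replicate 1 the first was 1.505 (adjusted p = 0.0103, joint F-test). On PD20 vs CD20 the F-test called 0 of the 103 higher and 2 lower, beside 1.49% of all. The likelihood ratio test called 2 higher and 10 lower there, beside 14.2% of all. For this list PD20 vs CD20 was not fitted again without replicate 1 of either group. On PD12 vs CD12 and PD16 vs CD16 neither test called any of the 103.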

How the data were processed

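Small RNA of 30 endometria (1 library per animal) had been sequenced with NEXTflex libraries in 3 multiplex pools over 2 joined runs. The authors removed low-quality reads, adapters and short reads, and deposited raw counts of each distinct sequence, neither aligned nor normalized. Which library was in which pool is not given in the sources used here. The 873 annotated sequences were taken from the study's list (exact identity to miRBase, NCBI, EMBL or Ensembl entries), and members were found by name and counted by exact match. Members and lists were chosen with earlier results of these data known. All 13 were named, with fold change, SE and adjusted p where a test called them or in the comparison with the smallest p; a few further values are description. In the joint test 1 p serves both days. Animals were separate, 1 library each.

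Library size was the sum of annotated reads, scaled by TMM in edgeR 4.0.16 (R 4.3.3). The arm fits were scaled on the table of 239 arms. Sequences or arms were tested by the quasi-likelihood F-test, with D16 and D20 tested jointly against D12, as in the study, and each P vs C comparison fitted alone; SE is the size of a log2FC over the root of its F. Fitting was tested on simulated counts. DESeq2 1.42.0, the likelihood ratio test, other scalings, filters, blocks and left-out libraries were alternatives. The counts of the cell type lists and of the likelihood ratio test without CD20 or PD20 replicate 1, and the reading of the miR-302 sequence, were chosen after seeing the data. Libraries of different groups that share a replicate number were on average no more alike than others. Their mean correlation of deviations was -0.0279 over 70 pairs, against 0.00693 over 304. Whether the numbers pair animals is not known, and the main fits did not use them. No 2 libraries of a group agreed within counting noise. No genome of the study's build was used, so no coordinates are given.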

Additional observations from a re-analysis of the deposited data

Results flagged for a closer look

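Screened in 102 groups of 4 to 6 libraries, 7 values stood far from the rest of their group, where chance flags about 1 in 20 groups. In CD20 replicate 1, the 19 nt form of miR-142-5p was at 23.5 normalized reads (others 3.33 to 7.24), the 23 nt form of miR-155 at 20.5 (others 5.59 to 8.91) and the 22 nt form of miR-342 at 28.02 (others 10.6 to 12.4). In CD12 the 20 nt form of miR-142-5p was at 24.1 in replicate 1 (others 2.82 to 6.18), and in replicate 2 the 24 nt form of miR-155 was at 0 (others 1.91 to 2.19) and the 25 nt form of miR-342 at 25.4 (others 4.53 to 7.65). In CD16 replicate 3 the 23 nt form of miR-150 was at 5.66 (others 1.35 to 1.85), from 12 reads.

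The change of miR-155 from D16 to D20 differed between pregnancy and cycle by -1.93 on the log2 scale, by the interaction test of edgeR (adjusted p = 0.0343). Its listed forms passed the study's minimum only in PD20 and CD20, so this value is partly fixed by the choice, and it was called in 21 of the 30 fits that left out 1 library.

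Reads that begin like a member but are outside the study's list numbered 183 for miR-142-3p, 1181 for miR-142-5p, 421 for miR-150, 595 for miR-155 and 1192 for miR-342.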

How the results depend on the processing

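Depth is 1 limit: 96 of 390 values rest on fewer than 10 reads, and counts of calls by the F-test sit close to the threshold. Among single sequences, which the F-test did not call, the number called became 4 for PD16 vs PD12, 4 for PD20 vs PD12, 3 for CD20 vs CD12 and 4 for CD20 vs CD16 with the likelihood ratio test, and the same with DESeq2, which also called 1 on CD16 vs CD12. With 1 fit of all 30 libraries it became 1, 1, 3 and 4, and 1 on CD16 vs CD12, while over all 873 sequences the calls went from 2, 7, 4, 4 and 1 to 5, 18, 50, 64 and 35. With a mean of at least 10 normalized reads it became 1 for PD16 and 1 for PD20 against PD12 (5 and 11 of all 540 tested). With RLE it became 1 on CD20 vs CD12 (7 of all 873), and with all deposited reads as library size 1 in CD20 against CD12 and 1 against CD16 (7 and 8 of all 873). Summed by arm, the calls were 1, 1, 1 and 2. Leaving out 1 library gave 0 to 2 sequences for PD16 and PD20 against PD12, 0 to 1 for CD20 vs CD12, 0 to 4 for CD20 vs CD16 (4 without CD20 replicate 3), and 0 to 1 for the interaction from D16 to D20. Without CD20 replicate 1 it was 0 in CD20 against CD12 and 0 against CD16, beside 3 and 2 of all 873. The other left-out counts are not set against all sequences here and are not read as an excess.

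For arm totals, all deposited reads as library size gave 0 calls for PD16 and 0 for PD20 against PD12, 3 on CD20 vs CD12 and 1 on PD20 vs CD20, where over all 239 arms it gave 1, 1, 16 and 36 against 2, 7, 5 and 19 before; it moved the median log2FC of all arms to -0.27 on PD20 vs PD12, 0.51 on CD20 vs CD12 and -0.38 on PD20 vs CD20. The likelihood ratio test gave 1 on CD16 vs CD12 and 2 on CD20 vs CD12, and 1 fit of all libraries 2 on CD20 vs CD12, where over all arms they gave 16, 16 and 18 against 4, 5 and 5 before. All deposited reads, the likelihood ratio test and 1 fit each gave 3 on CD20 vs CD16, with miR-150 added, and 19, 21 and 29 over all arms against 10 before. With the replicate block the calls were 0 for PD16 and 0 for PD20 against PD12 and 1 on CD20 vs CD16 (miR-155, at 2.13), and the title-number set as a block gave 0 for PD16 and 0 for PD20 against PD12. Over all arms the replicate block gave 1, 2 and 6 there and the set block 1 and 3. The replicate block changed the count in no other comparison. Leaving out 1 library gave 0 to 1 for PD16 and PD20 against PD12, 0 to 2 on CD20 vs CD12, 1 to 3 on CD20 vs CD16 and 0 to 1 for the interaction from D16 to D20. The likelihood ratio test called 1 sequence in that interaction. These left-out counts of arms are not set against all arms here and are not read as an excess. The cause of these changes was not tested.

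Changes of sign were followed for the log2FC, the form ratios and the correlations with an adjusted p under 0.05 by r or rho. With all deposited forms the difference in the log2 ratio of starts of miR-142-5p on PD16 vs PD12 went from -1.45 to 0.0623. As deviations from the group means, r of miR-142-5p and miR-155 went from 0.394 to -0.0212, and among weaker correlations those of miR-342 with miR-142-5p and miR-155 went from -0.338 and -0.0895 to 0.0245 and 0.366. Within the first set of title numbers, a setting chosen after seeing the data, r of miR-142-3p and the erythroid list was -0.123.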
